A study of Mus musculus with 11 samples.

Results

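The genes examined here build the vesicles that carry proteins between the endoplasmic reticulum (ER) and the Golgi. The set holds 40 genes, chosen by name, and all 40 were found among the 32285 rows of the count table and among the 15093 genes with enough reads to test. By role it holds 15 genes of the COPII coat and ER exit sites, 9 of the COPI coat, 5 for the Arf GTPases and their exchange factor, 9 cargo receptors and 2 SNAREs, the proteins that fuse vesicles with their target membrane.

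COPII coats form at ER exit sites, where SAR1 is loaded with GTP and recruits an inner layer of SEC23 and SEC24 and an outer cage of SEC13 and SEC31, and they carry new proteins outward. COPI coats are recruited to Golgi and intermediate membranes by ARF GTPases and return escaped ER proteins, cargo receptors and membrane. Beta cells of the islet send very large amounts of proinsulin along this route. Azoramide is a small molecule known for modulating the unfolded protein response, the programme that adjusts folding and export capacity of the ER.

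Islets came from mice aged 16 weeks after 4 weeks of high-fat feeding. They were exposed for 24 h to 10 µM azoramide or to its solvent DMSO, and their RNA was then sequenced. The 4 groups were βZKO_Mip islets with azoramide (3 libraries), βZKO_Mip islets with DMSO (2), littermate control islets with azoramide (3) and littermate control islets with DMSO (3). βZKO_Mip stands for a beta cell deletion of Zzef1. The suffix Mip is not spelled out, and neither the driver of the deletion nor whether controls carry it is given in the sources used here. Islets of 3 or more mice were pooled for each sample, and whether samples of the same genotype share mice is not stated. If they do, the p-values measure only the spread between these samples.

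Zzef1 was read in every library. Its level, in CPM (counts scaled to library size by the TMM method), was 72.1, 77.7 and 68.7 in βZKO_Mip islets with azoramide and 79.4 and 83.5 with DMSO, against 68.1, 64.3 and 67.4 in control islets with azoramide and 85.4, 109.7 and 96.5 with DMSO. Azoramide against DMSO gave a log2 fold change of -0.16 ± 0.087 (SE) in βZKO_Mip and -0.55 ± 0.078 in control islets (edgeR adjusted p = 0.153 and 3.46e-05). The βZKO_Mip libraries were lower than control with DMSO (-0.26 ± 0.087, edgeR unadjusted p = 0.00927, adjusted p = 0.999). They were higher with azoramide (0.13 ± 0.079, unadjusted p = 0.117, adjusted p = 0.968). The genotypes overlapped in neither treatment, but the directions were opposite and neither difference passed the threshold. The counts thus do not show the deletion; whole islets also hold cells outside its target, and the deleted part of the gene is not named in the labels. These libraries are called labelled knockout below.

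The 11 libraries held 16832800 to 19501813 counts each, and the members held 169 to 12635 counts per library. Relative counting error was thus larger for the members of low level. For Kdelr3, the lowest, the standard error of the azoramide fold change was 0.16 in labelled knockout and 0.14 in control islets. The 6 islet hormone genes summed to 163993 to 198728 CPM in labelled knockout islets with azoramide and 144680.0 to 149915 with DMSO, and to 179677 to 219214 and 154429 to 157849 in control islets. With azoramide 2 of them rose and 1 fell in labelled knockout islets, and 4 rose and 1 fell in control islets. The alpha cell hormone gene Gcg rose by 0.66 ± 0.077 and 0.78 ± 0.068 on the log2 scale, labelled knockout before control islets. Iapp, a beta cell peptide gene, rose by 0.75 ± 0.072 and 0.77 ± 0.063. The insulin genes went apart. In the same order the fold change of Ins1 was -0.50 ± 0.094 and -0.46 ± 0.085. That of the more abundant Ins2 was 0.26 ± 0.14 and 0.42 ± 0.13, called rising in control islets only. These changes are as large as those of many members, and their part in the results below was not tested. Azoramide library 3 of the labelled knockout islets, and DMSO library 2 of the control islets, stood apart from their groups: comparing raw counts over genes, pairs that include one of them had a chi-square of 15.5 to 25.2 per degree of freedom, and the other pairs of a group 5.69 to 15.2. Without both of them 22 members rose and 10 fell with azoramide in labelled knockout islets, against 23.4% and 22.9% of all genes, and 24 rose and 10 fell in control islets, against 21.2% and 21.9%. Markers of other cells differed with treatment. Of 7 endothelial markers 3 fell with azoramide in each genotype (1 rose in control islets), and of 8 macrophage markers 2 rose in each. Endothelial markers summed to 244 to 283 CPM against 329 to 336 in labelled knockout islets and 242 to 305 against 327 to 334 in control islets, azoramide before DMSO. Macrophage markers summed to 62.9 to 116 against 49.6 to 49.99 and 61.6 to 79.5 against 44.2 to 57.7. Of 7 ductal markers tested, 2 rose in labelled knockout and 3 in control islets. All 8 ductal markers listed summed to 1723 to 2105 against 1464 to 1509 and 1762 to 2119.6 against 1253 to 1626. The sums of all 7 fibroblast and stellate markers were low, at 12.2 to 20.2 against 21.4 to 25.7 and 13.7 to 18.6 against 19.1 to 21.3. Of the 6 tested, 1 fell in labelled knockout and 2 in control islets. Acta2 alone of all the markers was at 0 in some library. The part of these cells in the results below was not tested. None of 12 acinar markers passed the threshold, but their sum ranged widely within groups, at 1123 to 6536 against 629 to 2443 in labelled knockout and 1944 to 5114 against 963 to 5409 in control islets. With acinar content as a covariate 22 members rose and 8 fell in labelled knockout islets, against 17.9% and 17.6% of all genes, and 19 rose and 10 fell in control islets, against 18.7% and 19.1%. In that fit Copa lost (0.14) and Copz2 gained (0.33) a called rise in labelled knockout islets, and Tfg lost one in control islets (0.18). In such bulk samples, fewer cells of a type and less RNA per cell cannot be told apart.

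The coat and receptor genes were well expressed. Per kilobase of the principal transcript and averaged over all libraries, the highest level belonged to Tmed10 at 284 CPM per kb, followed by Arf1 at 221, Tmed2 at 216 and Copb2 at 158. The lowest were Kdelr3 at 7.62, Sec24a at 8.92, Sec24b at 10.4 and Sec23a at 11.2. Most COPI subunits lay in a narrow band. Copa, Copb1, Copb2, Arcn1, Cope and Copg1 averaged 98.7 to 158 CPM per kb, with Copz1 at 76.2 and the second copies Copz2 at 28.6 and Copg2 at 15.1.

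Among the 4 Sec24 paralogs, which select cargo in the inner COPII layer, Sec24d held the largest share of the family's counts per kb. It had 44.4% in labelled knockout islets with azoramide and 42.6% with DMSO, and 44.1% and 43.3% in control islets. Sec24c held 33.1% and 34.8% in labelled knockout islets and 33.8% and 33.8% in control islets. The shares of Sec24a and Sec24b lay between 9.62% and 13.9% in single libraries. The order of the paralogs was thus the same in every group. Of the KDEL receptors, which return ER residents, Kdelr2 held 53.3% and 47.3% in labelled knockout islets and 52.4% and 50.7% in control islets, while Kdelr3 held 4.90%, 5.45%, 4.88% and 4.94% in the same order. Within the family of Arf1, Arf3, Arf4 and Arf5, Arf3 held 9.67% with azoramide and 13.4% with DMSO in labelled knockout islets, and 9.77% and 13.0% in control islets. The principal transcript of Arf3 has 4566 bases, and those of Arf1, Arf4 and Arf5 have 1991, 2165 and 1116. No correction for the trend with transcript length described below enters these shares.

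**Figure D1:**
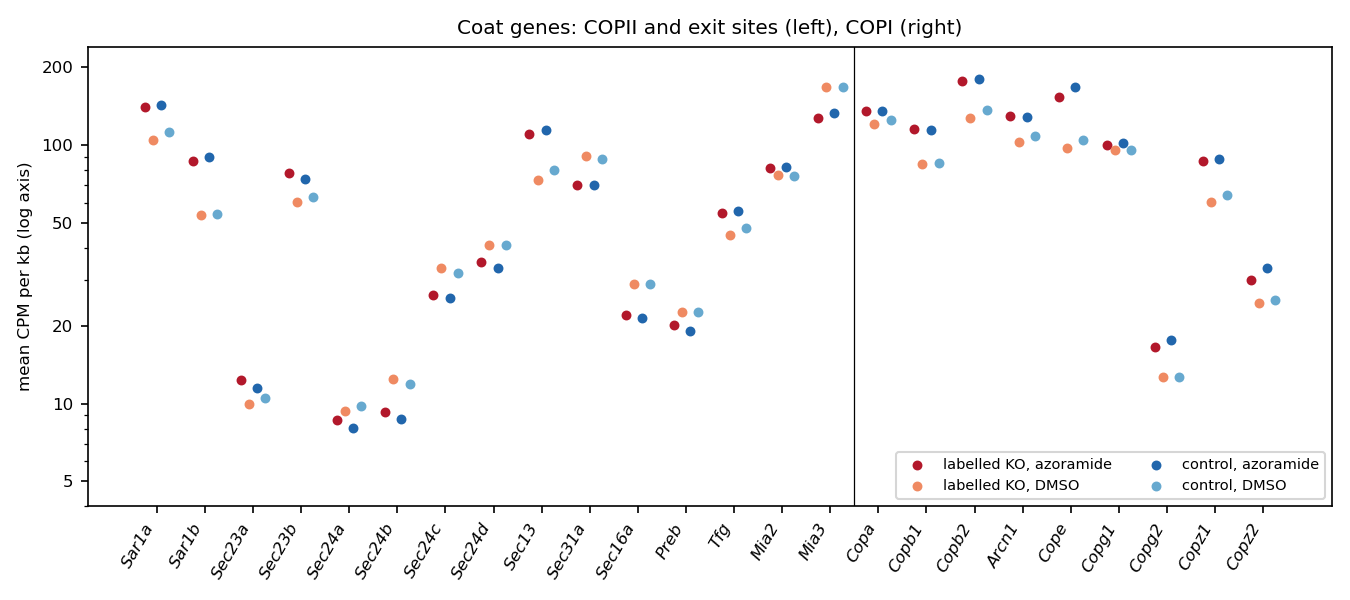
Mean level of the 24 coat genes in the 4 groups, in CPM per kb of the principal transcript on a log axis, with COPII and exit site genes on the left and COPI genes on the right. Cope lies at 154 and 167 CPM per kb with azoramide, above 97.3 and 105 with DMSO, while Mia3 lies at 127 and 134 with azoramide, below 168 and 168 with DMSO, each pair giving labelled knockout before control islets.

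Azoramide was set against DMSO in each genotype. In labelled knockout islets 22 members rose, 8 fell and 10 did not pass the threshold (edgeR adjusted p under 0.05); over all 15093 genes 20% rose and 19.8% fell, so 39.8% were called. In control islets 20 members rose, 10 fell and 10 did not pass, with 19.3% rising and 19.8% falling over all genes and 39% called. The share of rising members was thus well above the background in both genotypes, and that of falling members was near it. The median log2 fold change over the members was 0.26 in labelled knockout and 0.20 in control islets, beside -0.0032 and -0.020 over all genes. These genotype comparisons share no library. In both of them 18 members rose, that is 18 of the 22 risers in labelled knockout and 18 of the 20 in control islets, and 8 fell, that is all 8 in labelled knockout and 8 of the 10 in control islets; none was called in opposite directions. Over all genes 15.8% rose and 15.5% fell in both genotypes. Azoramide and DMSO libraries did not overlap for 35 of 40 members in labelled knockout islets, against 61.6% of all genes, and for 29 of 40 in control islets, against 48.4%. Shares over genes of levels like those of the members were not computed, so the part of read depth in these counts was not tested.

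**Figure D2:**
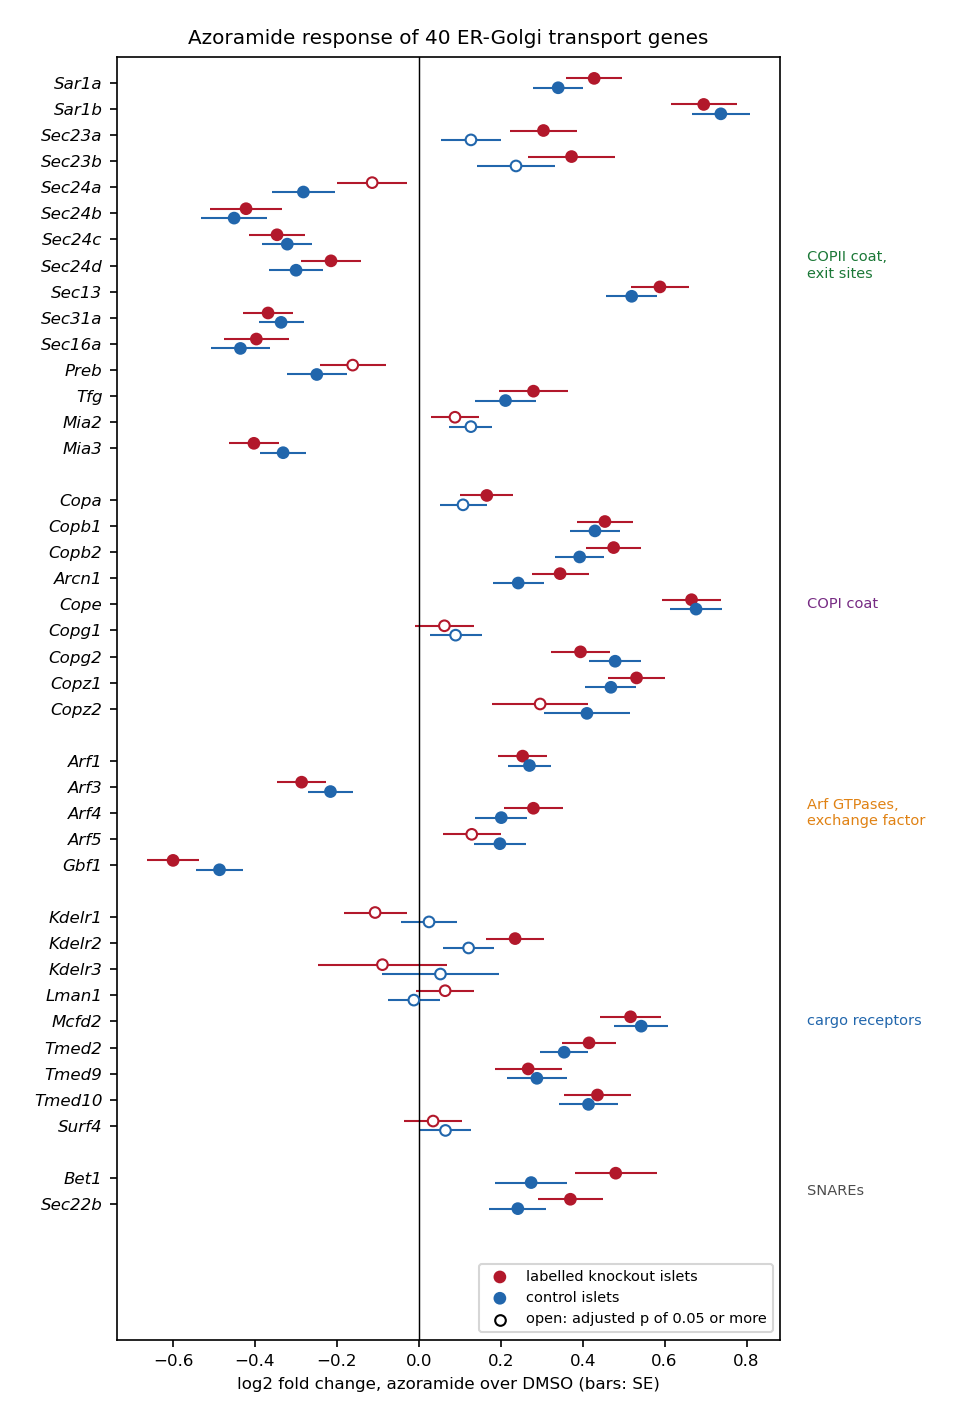
Log2 fold change of each of the 40 members, azoramide over DMSO, in labelled knockout (upper point of each gene, red) and control islets (lower point, blue), with bars for the standard error and open points for genes that did not pass the threshold. All 9 COPI genes lie right of 0 in both genotypes, although with plain library totals Copg1 (-0.093 and -0.078) and, in control islets, Copa (-0.059) lie below it, while Sec24b, Sec31a, Sec16a, Mia3 and Gbf1 lie left of 0.

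The COPII list split by component. In labelled knockout islets 6 of 15 rose and 6 fell, against 20% and 19.8% of all genes, with a median log2 fold change of -0.11. In control islets 4 rose and 8 fell, against 19.3% and 19.8% of all genes, with a median of -0.25. The small GTPases and the cage protein Sec13 rose, whereas Sec24 paralogs, the other cage protein Sec31a and the exit site scaffold Sec16a fell; Sec24a passed only in control islets. Fewer of these calls were kept with an offset for transcript length, which also takes out any azoramide response that runs with length. With the length and GC offset from principal transcripts, described below, 3 of the 15 rose and 1 fell in labelled knockout islets, with a median of 0.041. Over all genes 11.7% rose and 9.42% fell there. In control islets 2 rose and 2 fell, against 11.1% and 8.5% of all genes, with a median of 0.012. Sar1b, Sec31a, Sec16a, Sec24c and Sec24d were then not called in either genotype. Sar1a and Sec13 still rose and Mia3 still fell in both.

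Sar1b (chr11:51763687-51791925, plus strand, GRCm38), one of the GTPases that start coat assembly and whose human counterpart is needed for chylomicron export, had 110.0, 106 and 97.9 CPM in labelled knockout islets with azoramide, against 62.4 and 66.8 with DMSO. In control islets it had 106, 110.3 and 109 CPM with azoramide, against 71.4, 64.8 and 58.5 with DMSO. Every azoramide library lay above every DMSO library, and the log2 fold change was 0.70 ± 0.080 (SE) in labelled knockout islets (adjusted p = 4.42e-06) and 0.74 ± 0.071 in control islets (adjusted p = 5.39e-07). Its paralog Sar1a had 379, 369 and 355 CPM with azoramide, against 278 and 269 with DMSO, in labelled knockout islets. In control islets Sar1a had 369.9, 360.3 and 388 CPM, against 286, 318 and 279 with DMSO. It too separated the treatments in every library, and rose by 0.43 ± 0.068 (adjusted p = 9.58e-05) and 0.34 ± 0.060 (adjusted p = 0.000254) on the log2 scale.

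Sec13 (chr6:113728062-113740743, minus strand), a cage subunit that is also part of the nuclear pore, had 156, 150.2 and 142 CPM in labelled knockout islets with azoramide, against 97.8 and 101 with DMSO. In control islets it had 158, 151 and 157 CPM, against 105, 117 and 103 with DMSO. The treatments did not overlap, and Sec13 rose by 0.59 ± 0.070 (adjusted p = 6.1e-06) and 0.52 ± 0.062 (adjusted p = 5.57e-06) in labelled knockout and control islets. Its cage partner Sec31a went the other way. It had 305, 288 and 298 CPM with azoramide, against 376 and 390.4 with DMSO, in labelled knockout islets, and 287, 312 and 290.2 CPM, against 371, 385 and 366, in control islets. Every azoramide library was below every DMSO library, and the fold change was -0.37 ± 0.061 (adjusted p = 0.00014) and -0.34 ± 0.055 (adjusted p = 0.000124).

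Sec16a (chr2:26409431-26445216, minus strand), the large scaffold of ER exit sites, had 181, 189 and 209.7 CPM in labelled knockout islets with azoramide, against 250.3 and 258 with DMSO. In control islets it had 182, 199 and 180.2 CPM, against 247, 277 and 234 with DMSO. Its log2 fold change was -0.40 ± 0.080 (adjusted p = 0.000733) and -0.44 ± 0.072 (adjusted p = 0.000131), with no overlap between treatments. Mia3 (chr1:183326725-183369553, minus strand), which encodes TANGO1, the exit site receptor for procollagen and other bulky cargo, had 383, 354 and 392 CPM with azoramide, against 503 and 492 with DMSO, in labelled knockout islets. In control islets Mia3 had 383, 413 and 392 CPM, against 496, 492 and 506 with DMSO. Its log2 fold change was -0.40 ± 0.062 (adjusted p = 6.62e-05) and -0.33 ± 0.056 (adjusted p = 0.000155). The related Mia2, with which it forms exit site complexes, did not pass, at 0.088 ± 0.059 and 0.13 ± 0.052 (adjusted p = 0.251 and 0.0639).

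Of the Sec24 paralogs, Sec24b, Sec24c and Sec24d fell in both genotypes. Sec24b had 44.4, 45.5 and 53.3 CPM with azoramide, against 58.5 and 69.4 with DMSO, in labelled knockout islets, and 44.1, 45.1 and 44.8 CPM, against 63.0, 60.3 and 59.8, in control islets. The groups did not overlap, and its log2 fold change was -0.42 ± 0.088 and -0.45 ± 0.080; the value was -0.35 and -0.32 for Sec24c, and -0.21 and -0.30 for Sec24d, labelled knockout before control islets. Sec24a fell in control islets (-0.28 ± 0.078, adjusted p = 0.00791) and was -0.11 ± 0.086 in labelled knockout islets (adjusted p = 0.32). Preb, the ER exchange factor that loads SAR1 with GTP, likewise fell in control islets (-0.25 ± 0.073, adjusted p = 0.0112), with -0.16 ± 0.081 in labelled knockout islets (adjusted p = 0.125). The SEC23 genes of the inner layer were not called falling. Sec23a and Sec23b rose in labelled knockout islets, by 0.30 ± 0.082 and 0.37 ± 0.11, and stood at 0.13 ± 0.073 and 0.24 ± 0.095 in control islets (adjusted p = 0.189 and 0.0614). Tfg, which organises COPII carriers at exit sites, rose by 0.28 ± 0.083 and 0.21 ± 0.074.

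Several COPII calls were lost when a single library was left out, which also shrinks a group. Where 1 of the 2 labelled knockout DMSO libraries is left out, the other is assumed to vary like the libraries of the other groups. Without labelled knockout DMSO library 1 the values were 0.30 for Sec23a, 0.27 for Tfg and -0.17 for Sec24d, none past the threshold. Without labelled knockout DMSO library 2 the calls of Sec23b (0.33), Tfg (0.29), Sec24b (-0.29) and Sec24d (-0.26) were lost, and that of Sec24d also without azoramide library 2 (-0.21). In control islets Tfg lost its call without azoramide library 1 (0.19) or 3 (0.20) and without DMSO library 1 (0.18) or 3 (0.15), and Preb lost its call without DMSO library 2 (-0.17). That same control DMSO library 2, which stood apart from its group, changed other calls too: without it Sec23b (0.37) and Mia2 (0.14) rose in control islets. Without it and labelled knockout azoramide library 3 together, Sec24a (-0.19) and Preb (-0.21) fell in labelled knockout islets.

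Most COPI genes rose and none fell. In each genotype 7 of 9 rose, against 20% and 19.3% of all genes, with a median log2 fold change of 0.39 in labelled knockout and 0.41 in control islets. COPI is recruited as a heptamer, and the rise took in subunits of both its outer and its adaptor-like part.

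Cope (chr8:70302518-70312993, plus strand), the epsilon subunit of the outer part, had 210.3, 197 and 195 CPM in labelled knockout islets with azoramide, against 127 and 126 with DMSO. In control islets Cope had 214, 213 and 226 CPM, against 139, 145 and 124 with DMSO. The treatments were far apart in both genotypes, at 0.67 ± 0.072 (adjusted p = 2.49e-06) and 0.68 ± 0.064 (adjusted p = 4.23e-07) on the log2 scale. Copb2 (chr9:98563721-98588382, plus strand), the beta prime subunit that binds retrieval signals, had 560.5, 535 and 529 CPM with azoramide, against 393 and 386 with DMSO, in labelled knockout islets. In control islets it had 555, 539 and 553 CPM, against 420.1, 449 and 385, and it rose by 0.48 ± 0.067 and 0.39 ± 0.059. Copb1 (chr7:114215559-114254711, minus strand), the beta subunit of the adaptor-like part, had 394, 376 and 395 CPM with azoramide, against 286 and 281 with DMSO, in labelled knockout islets. In control islets Copb1 had 381, 384 and 388 CPM, against 289, 307 and 261 with DMSO. It rose by 0.45 ± 0.068 and 0.43 ± 0.060, with every azoramide library above every DMSO library.

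The zeta subunit Copz1 rose by 0.53 ± 0.070 and 0.47 ± 0.062, and the delta subunit Arcn1 by 0.34 ± 0.070 and 0.24 ± 0.062. Of the 2 gamma subunits, Copg2 rose by 0.39 ± 0.072 and 0.48 ± 0.064, while the more abundant Copg1 stood at 0.062 ± 0.071 and 0.090 ± 0.064 and did not pass. Copg2 had 69.0, 65.1 and 63.0 CPM with azoramide, against 48.4 and 51.5 with DMSO, in labelled knockout islets, and 67.1, 70.0 and 72.6 CPM, against 50.3, 48.2 and 52.0, in control islets. Copz2, the less abundant zeta subunit, rose in control islets (0.41 ± 0.10, adjusted p = 0.00457) and was 0.30 ± 0.12 in labelled knockout islets (adjusted p = 0.0535), where omitting control azoramide library 2 (0.30) or control DMSO library 2 (0.30) or 3 (0.30) brought it past. Copa, the alpha subunit, passed narrowly in labelled knockout islets (0.17 ± 0.064, adjusted p = 0.0493). It lost that call when any of the 5 labelled knockout libraries, any control azoramide library or control DMSO library 1 was left out, with values of 0.14 to 0.19. In control islets Copa stood at 0.11 ± 0.057 (adjusted p = 0.153) and rose without DMSO library 2 (0.17).

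Of the 5 Arf GTPase and exchange factor genes, 2 rose and 2 fell in labelled knockout islets, against 20% and 19.8% of all genes. In control islets 3 rose and 2 fell, against 19.3% and 19.8% of all genes. Arf1, which recruits COPI, had 481, 469 and 464 CPM in labelled knockout islets with azoramide, against 398 and 393 with DMSO. In control islets Arf1 had 478, 487 and 479 CPM, against 397, 420.0 and 380.4 with DMSO, and it rose by 0.25 ± 0.060 and 0.27 ± 0.053. Gbf1 (chr19:46152509-46286510, plus strand), the exchange factor that activates ARF at the early Golgi, had 115, 112 and 123 CPM with azoramide, against 174 and 179.6 with DMSO, in labelled knockout islets. In control islets Gbf1 had 116, 117 and 117 CPM, against 169, 167 and 155 with DMSO. Gbf1 fell, with log2 fold changes of -0.60 ± 0.063 (adjusted p = 1.84e-06) and -0.49 ± 0.057 (adjusted p = 5.09e-06), the lowest values among the members in each genotype.

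Arf3, a GTPase of the later Golgi that is close in sequence to Arf1, fell, with log2 fold changes of -0.29 ± 0.060 and -0.22 ± 0.054. Arf4 rose by 0.28 ± 0.071 and 0.20 ± 0.063, and Arf5 rose in control islets (0.20 ± 0.063) and stood at 0.13 ± 0.071 in labelled knockout islets (adjusted p = 0.161). The rise of Arf4 lost its call without labelled knockout DMSO library 2 (0.26) and, in control islets, without azoramide library 3 (0.17) or DMSO library 1 (0.17) or 3 (0.16). That of Arf5 in control islets did so without azoramide library 2 (0.19) or DMSO library 1 (0.17) or 3 (0.18).

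Cargo receptors rose in part. Of 9, 5 rose in labelled knockout and 4 in control islets, against 20% and 19.3% of all genes. None fell, against 19.8% of all genes in each genotype. The p24 proteins Tmed2, Tmed9 and Tmed10, which cycle between ER and Golgi in both coats, rose together. Tmed10 (chr12:85340614-85374847, minus strand) had 503, 494 and 435 CPM in labelled knockout islets with azoramide, against 361 and 345 with DMSO. In control islets it had 454, 493 and 479 CPM, against 377, 375 and 319 with DMSO. The groups did not overlap, and Tmed10 rose by 0.44 ± 0.081 and 0.41 ± 0.072, Tmed2 by 0.42 ± 0.066 and 0.35 ± 0.059, and Tmed9 by 0.27 ± 0.082 and 0.29 ± 0.073. The call of Tmed9 in labelled knockout islets was lost without DMSO library 1 (0.25) or 2 (0.29).

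Mcfd2 and Lman1, which in human form the receptor that exports coagulation factors V and VIII, had different calls. Mcfd2 had 107, 111 and 104 CPM with azoramide, against 74.1 and 75.6 with DMSO, in labelled knockout islets, and 107, 104 and 107 CPM, against 73.1, 79.6 and 65.3, in control islets. It rose by 0.52 ± 0.075 (adjusted p = 3.78e-05) and 0.54 ± 0.066 (adjusted p = 7.15e-06). Lman1, the membrane lectin of the pair, stood at 0.064 ± 0.071 and -0.012 ± 0.063 and did not pass. Surf4, a receptor for soluble cargo, stood at 0.035 ± 0.071 and 0.065 ± 0.063. Among the KDEL receptors Kdelr2 rose in labelled knockout islets (0.24 ± 0.071, adjusted p = 0.0135), a call lost without DMSO library 2 (0.19). In control islets Kdelr2 stood at 0.12 ± 0.063 (adjusted p = 0.143) and rose without DMSO library 2 (0.17). Kdelr1 stood at -0.11 ± 0.077 and 0.025 ± 0.069, and Kdelr3 at -0.089 ± 0.16 and 0.053 ± 0.14.

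Both SNAREs rose in both genotypes, against 15.8% of all genes. With either length and GC offset, however, neither was called rising, and with plain library totals neither was in control islets. With the offset from principal transcripts Bet1 stood at -0.19 in labelled knockout islets and was called falling in control islets (-0.33). Bet1 had 46.5, 49.5 and 48.5 CPM with azoramide, against 34.1 and 34.9 with DMSO, in labelled knockout islets, and 50.5, 42.7 and 51.6 CPM, against 39.2, 44.5 and 35.8, in control islets, where the groups overlapped. Its log2 fold change was 0.48 ± 0.10 (adjusted p = 0.00096) and 0.27 ± 0.088 (adjusted p = 0.0198). In control islets that call was lost without azoramide library 1 (0.25) or 3 (0.22) or DMSO library 1 (0.26) or 3 (0.20). Sec22b, a SNARE of ER to Golgi and retrograde carriers, rose by 0.37 ± 0.079 and 0.24 ± 0.070, and in control islets stood at 0.17 without DMSO library 3.

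**Figure D3:**
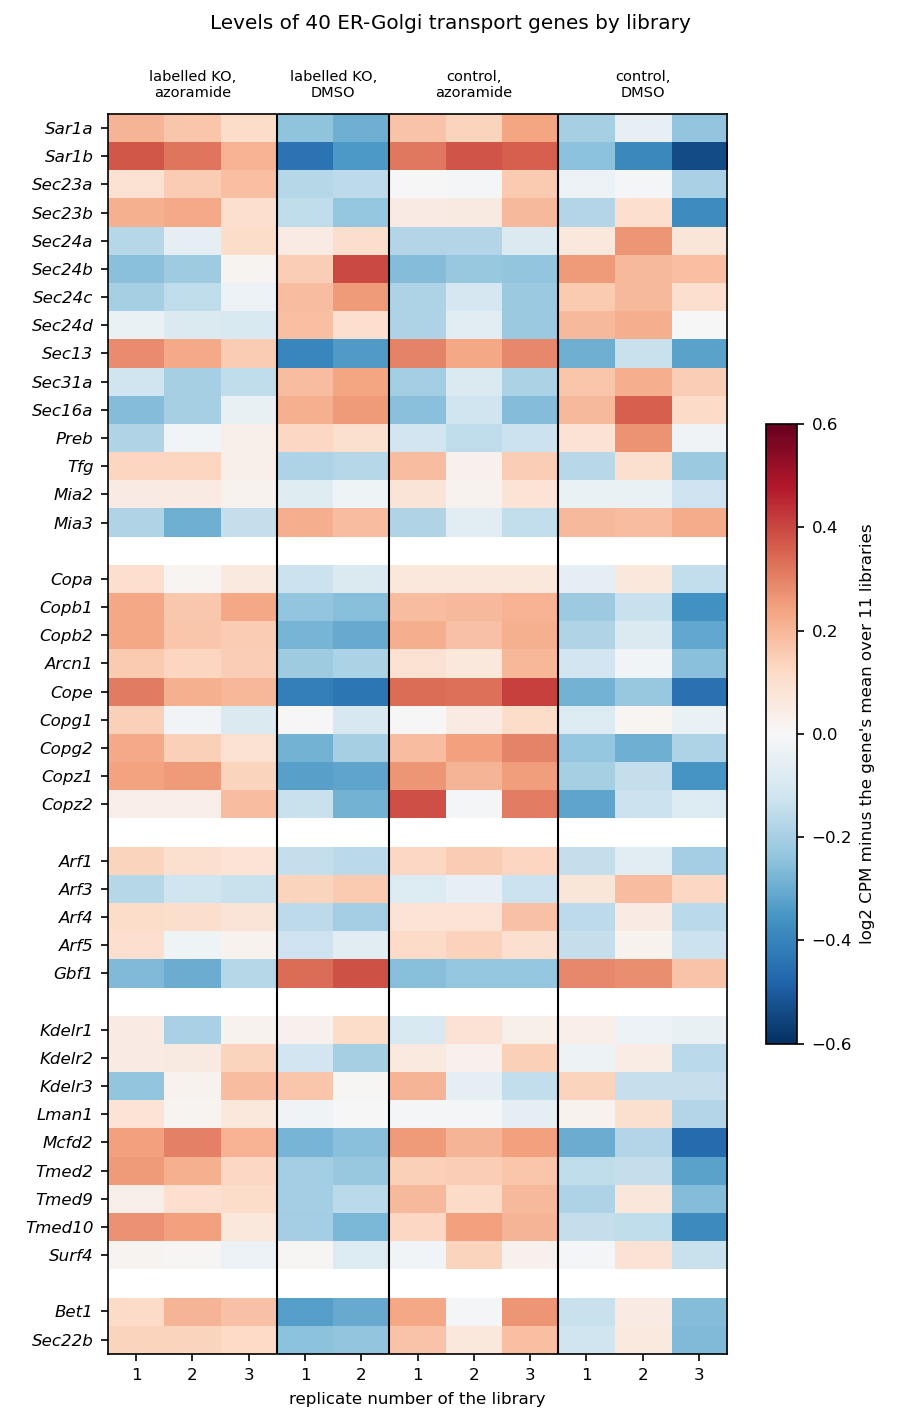
Level of each member in each of the 11 libraries, as log2 CPM minus the gene's mean over all libraries (colour, red above and blue below), with columns by group and replicate number and rows by role. Sar1b, Cope, Sec13 and Mcfd2 are red in all 6 azoramide libraries and blue in all 5 DMSO libraries, Gbf1 and Mia3 the reverse, and control DMSO library 2 is paler than the other control DMSO libraries for many rising genes.

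Ratios of partner genes within a library do not depend on how libraries are scaled, but the partners can differ in transcript length. The pairs given here were chosen after the values were seen, so they carry no test. The ratio of Sec13 to Sec31a, in counts per kb, was 1.60, 1.63 and 1.49 in labelled knockout islets with azoramide, against 0.812 and 0.810 with DMSO. In control islets it was 1.72, 1.51 and 1.69 with azoramide, against 0.882, 0.948 and 0.875 with DMSO. Every azoramide library had a higher ratio of these cage partners than every DMSO library. The ratio of Gbf1 to Arf1 was 0.0737, 0.0739 and 0.0817 with azoramide, against 0.135 and 0.141 with DMSO, in labelled knockout islets, and 0.0747, 0.0744 and 0.0757, against 0.131, 0.123 and 0.126, in control islets. Within COPI the ratio of Cope to Copa averaged 1.14 ± 0.0284 (SD) with azoramide and 0.808 ± 0.0249 with DMSO in labelled knockout islets, and 1.24 ± 0.0398 and 0.833 ± 0.0249 in control islets.

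Sar1b to Sar1a averaged 0.619 ± 0.0166 with azoramide and 0.515 ± 0.0369 with DMSO in labelled knockout islets, and 0.632 ± 0.0297 and 0.481 ± 0.0540 in control islets. Copg2 to Copg1 averaged 0.166 ± 0.00595 and 0.132 ± 0.0120 in labelled knockout islets, and 0.173 ± 0.000489 and 0.132 ± 0.00828 in control islets, azoramide before DMSO. Mcfd2 to Lman1 averaged 0.567 ± 0.0305 and 0.414 ± 0.000809, and 0.592 ± 0.0176 and 0.403 ± 0.00633, in the same order. In none of these did azoramide and DMSO libraries of a genotype overlap. The ratios of Sec23b to Sec23a, Copz2 to Copz1 and Tmed10 to Tmed2 overlapped between treatments in both genotypes. For Tmed10 to Tmed2 the averages were 1.31 ± 0.0464 and 1.29 ± 0.0298 in labelled knockout islets and 1.35 ± 0.0525 and 1.30 ± 0.0342 in control islets.

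The fitted log2 fold change of one partner minus that of the other changed with the principal transcript offset. For 5 of the 6 plotted pairs it kept its sign and was smaller in size in both genotypes. For Sar1b minus Sar1a it turned, to -0.27 in labelled knockout and -0.094 in control islets with the offset, beside 0.27 and 0.40 without it. For Sec13 minus Sec31a it was 0.49 and 0.40 with the offset, beside 0.96 and 0.86 without it, and for Gbf1 minus Arf1 -0.43 and -0.34, beside -0.85 and -0.76. With the offset it was 0.21 and 0.24 for Cope minus Copa, 0.026 and 0.14 for Copg2 minus Copg1, and 0.35 and 0.42 for Mcfd2 minus Lman1.

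**Figure D4:**
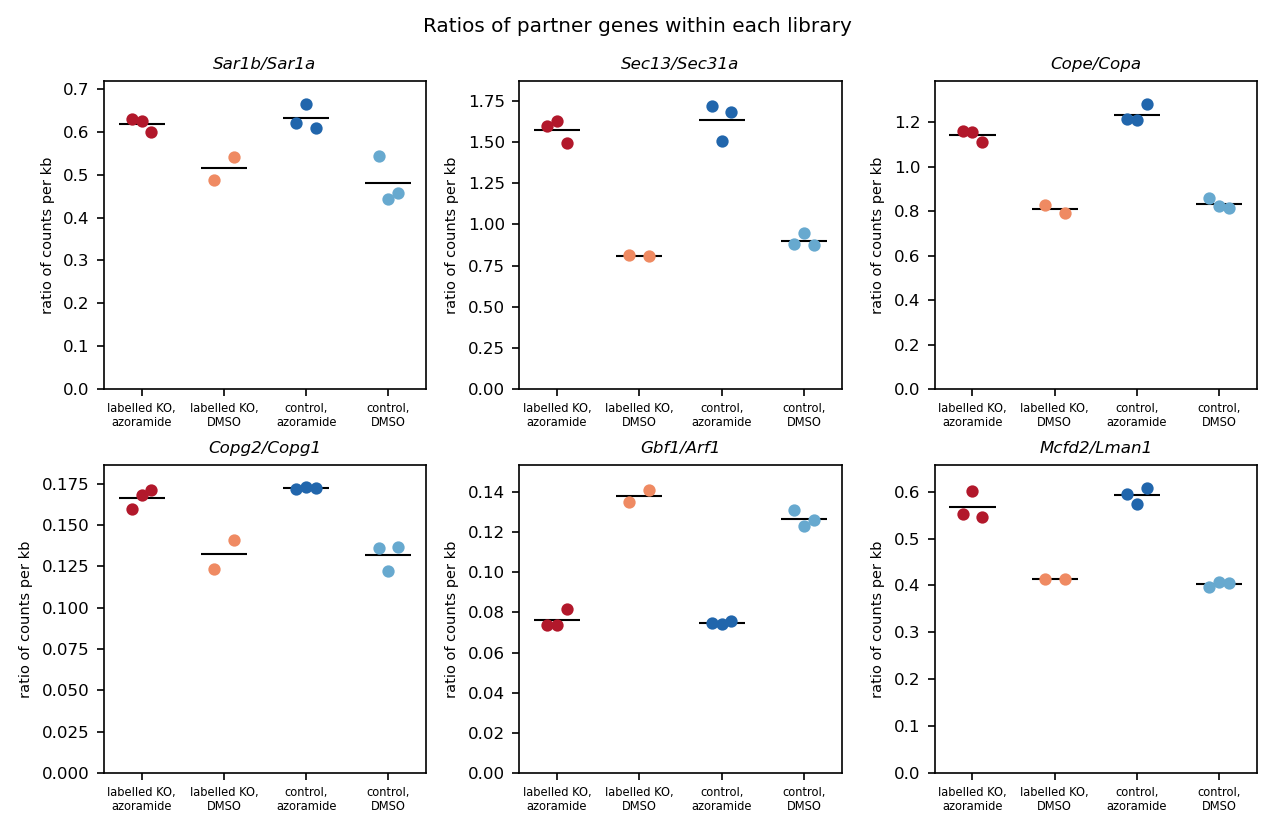
Ratio of counts per kb of 6 gene pairs in each library (points) with the group mean (lines), for labelled knockout and control islets with azoramide and DMSO; all vertical axes start at 0. In every panel the azoramide and DMSO points of a genotype do not overlap, and only Gbf1 to Arf1 is lower with azoramide; no correction for transcript length enters these ratios.

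The direction of change ran with transcript length. With length taken from the principal transcript, its Spearman correlation with the log2 fold change over the 40 members was -0.62 in labelled knockout and -0.68 in control islets; the members share the same libraries, and the trend ran through the tested genes with an annotated length. In labelled knockout islets the median log2 fold change over these genes was 0.34 in the fifth of genes with the shortest transcripts and -0.23 in the fifth with the longest, and in control islets it was 0.33 and -0.25. Of the 14 members under 2000 bases, 10 rose in labelled knockout and 11 in control islets and none fell. Of the 12 members from 2000 to 4000 bases, 9 and 8 rose and 2 and 2 fell. Of the 14 members over 4000 bases, 3 and 1 rose and 6 and 8 fell. Over all genes of any length 20% and 19.3% rose, and 19.8% fell in each genotype. The shares over all genes of each length class were not computed, so these counts cannot be told apart from the general trend with length. The risers Sar1b, Cope and Sec13 have principal transcripts of 1201, 1300 and 1353 bases, and the fallers Sec16a, Gbf1 and Sec24b of 8737, 6450 and 5128.

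A second fit carried an offset for length and GC content. The offset was estimated from these same libraries without regard to treatment, so any azoramide response that runs with length is removed with it. A call lost under it thus cannot tell such a response from a technical trend. With the offset from principal transcripts, added after the data were seen, 15 members rose and 3 fell in labelled knockout islets, against 11.7% and 9.42% of all genes, and 13 rose and 3 fell in control islets, against 11.1% and 8.5%. In the COPI list 8 of 9 rose in each genotype, now with Copa (0.36 and 0.29) and Copg1 (0.27 and 0.28), and Cope kept 0.56 and 0.53. Sar1a (0.31 and 0.24), Sec13 (0.34 and 0.27) and Mcfd2 (0.38 and 0.41) also remained risers. Mia3, with a principal transcript of 2961 bases in the annotation used, remained a faller at -0.53 and -0.43. The offsets of Mia3 rest on that length, or on 4431 bases over all exons, and neither was checked against other sources. The calls of Sar1b (0.043 and 0.15), Sec31a (-0.14 and -0.13), Sec16a (0.025 and -0.033), Sec24c (-0.11 and -0.11) and Arf3 (-0.0078 and 0.033) were lost in both genotypes. Gbf1 kept its call in labelled knockout islets (-0.21) and lost it in control islets (-0.13). The calls of Sec24d (-0.072 and -0.17), Tfg (0.067 and 0.012), Arf4 (-0.062 and -0.097), Tmed9 (0.065 and 0.072), Tmed10 (0.16 and 0.15) and Sec22b (0.11 and 0.029) were lost as well. In labelled knockout islets so were those of Sec24b (-0.19), Sec23a (0.14) and Kdelr2 (-0.0038), and in control islets those of Sec24a (-0.20), Preb (0.075), Tmed2 (0.14), Arf5 (0.081) and Copz2 (0.062). Surf4 gained a called rise (0.25 and 0.24), and Kdelr1 a called fall in labelled knockout islets (-0.25). With the offset from all exons of a gene, 14 members rose and 4 fell in labelled knockout islets, against 13.7% and 10.6% of all genes, and 15 rose and 3 fell in control islets, against 13.2% and 9.49%; COPI again had 8 of 9 rising in each genotype.

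**Figure D5:**
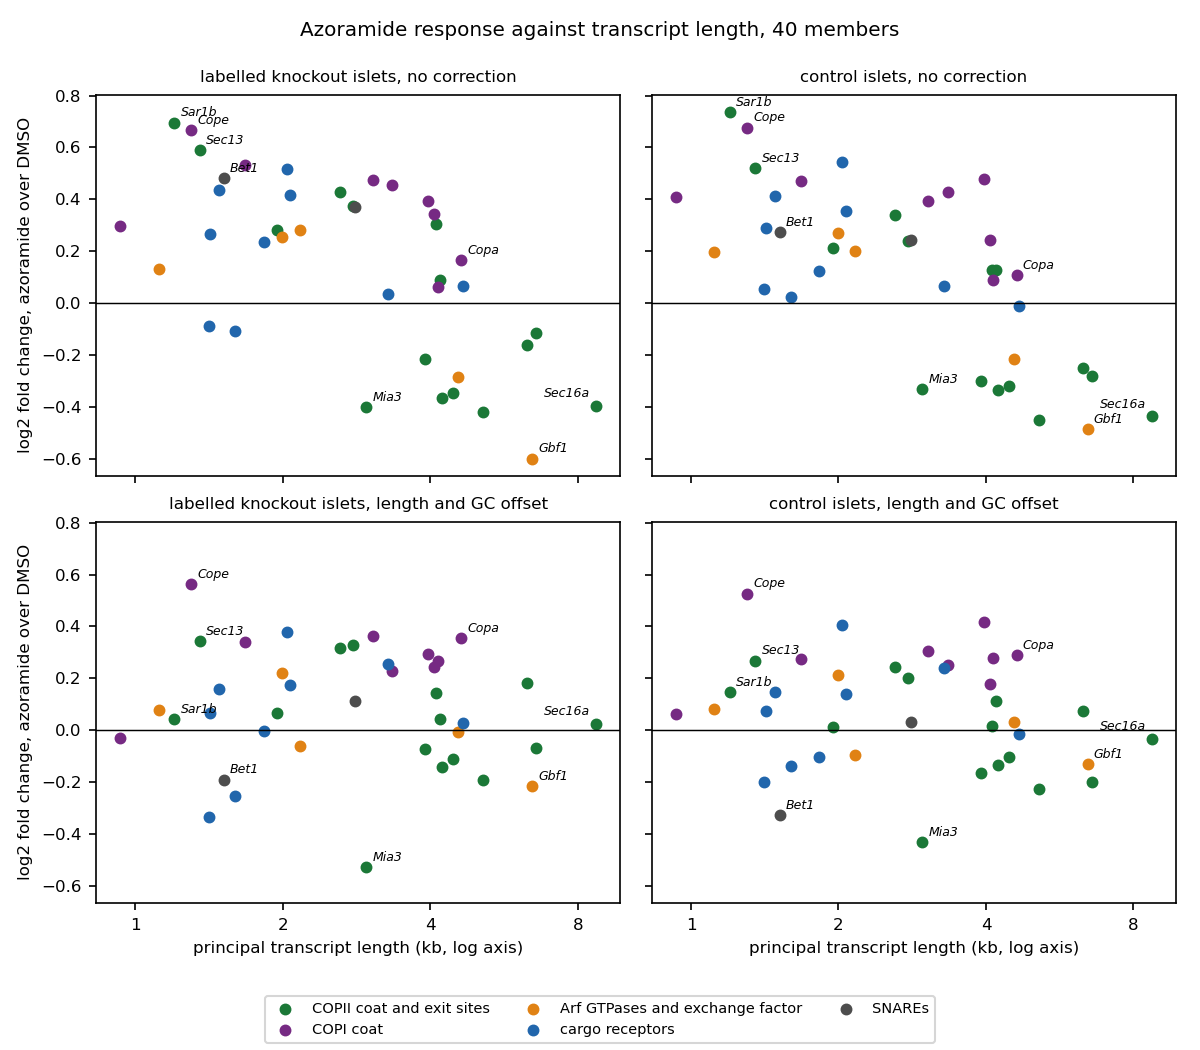
Log2 fold change of the 40 members, azoramide over DMSO, against principal transcript length in kb on a log axis, coloured by role, in labelled knockout (left) and control islets (right), without a correction (top) and with the length and GC offset from principal transcripts (bottom). Above, the points slope downward from Sar1b and Cope to Sec16a and Gbf1; below, the COPI points lie above 0 except Copz2 in labelled knockout islets at -0.029, and Mia3 lies lowest.

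Scaling moved the split of calls. TMM factors were 0.9189 to 0.973 in azoramide and 1.036 to 1.078 in DMSO libraries, and with plain library totals the median log2 fold change of all genes was -0.16 in labelled knockout and -0.19 in control islets. On that scale 14 members rose and 11 fell in labelled knockout islets, against 12.4% and 30.1% of all genes, and 11 rose and 11 fell in control islets, against 10.8% and 32.8%. The rise of Arf1 lost its call in both genotypes (0.098 and 0.10), as did those of Tfg (0.12 and 0.044), Arf4 (0.12 and 0.034) and Tmed9 (0.11 and 0.12). In labelled knockout islets Sec23a (0.15), Sec23b (0.22), Copa (0.010) and Kdelr2 (0.079) lost theirs, and in control islets Arcn1 (0.075), Bet1 (0.11), Sec22b (0.074), Copz2 (0.24) and Arf5 (0.031). Sec24a (-0.27), Preb (-0.32) and Kdelr1 (-0.26) gained a called fall in labelled knockout islets, and Lman1 (-0.18) in control islets. COPI still had 6 risers in labelled knockout and 5 in control islets and no fallers. Across all 21 alternatives run, Sar1a, Sec13, Copb1, Copb2, Cope, Copg2, Copz1 and Mcfd2 rose and Mia3 fell in both genotypes; Arcn1 rose and Gbf1 fell in all of them in labelled knockout islets, and Sec24b fell in all of them in control islets.

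Promoters were read as windows from 250 bases before to 50 after the start site in the RefSeq annotation of GRCm38.p6, and 36 of the 40 members matched. The unfolded protein response element TGACGTGG, a site of the kind bound by XBP1 and ATF6, was searched on both strands, where the reverse strand reads CCACGTCA; its first letters are shared with the cAMP response element TGACGTCA, and its CCACG with the ER stress elements below. It was found in 7 of 36 members (19.4%) and in 193 of 27025 genes (0.714%). The 27025 genes, here and for the motifs below, also include genes with too few reads to test, whereas all members were tested. The share among tested genes was not computed. The holders were Copb1, Copb2, Arf1, Sec23a, Sec24d, Gbf1 and Kdelr3. Stretches around it are shown for holders that rose or fell in both genotypes, on the strand of the gene, with the element in capitals. They lie at chr7:114254681-114254744 (minus strand), chr9:98563688-98563741 (plus), chr11:59228238-59228282 (minus), chr3:123267434-123267495 (plus) and chr19:46152510-46152563 (plus).
Copb1: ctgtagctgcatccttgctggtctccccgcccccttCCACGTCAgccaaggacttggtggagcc
Copb2: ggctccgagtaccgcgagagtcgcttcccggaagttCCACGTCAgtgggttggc
Arf1: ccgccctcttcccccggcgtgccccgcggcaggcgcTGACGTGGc
Sec24d: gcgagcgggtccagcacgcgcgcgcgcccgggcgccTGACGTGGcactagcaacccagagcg
Gbf1: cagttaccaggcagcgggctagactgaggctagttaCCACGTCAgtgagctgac

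The holders had no common direction. Copb1, Copb2 and Arf1 rose and Sec24d and Gbf1 fell with azoramide in both genotypes, Sec23a rose in labelled knockout islets, and Kdelr3 did not pass in either. The ER stress elements ERSE and ERSE-II were found in 0 of 36 members, against 0.137% and 0.0444% of genes. The cAMP response element was found in Cope alone (2.78% of members, against 2.03% of genes), the E-box CACGTG in Sar1a, Arf5, Mcfd2 and Tmed10 (11.1%, against 8.09%), and CCAAT in 13 members (36.1%, against 41.1%). A match is a run of letters and does not show binding.

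No member was called between the genotype labels. Labelled knockout against control islets gave 0 of 40 members past the threshold with azoramide and 0 of 40 with DMSO, against 0% of all genes in both comparisons, and 0 members had an unadjusted p under 0.05. Over all genes edgeR gave 754 with azoramide and 531 with DMSO at an unadjusted p under 0.05, and DESeq2 called 2 and 3. Without both libraries that stood apart, edgeR called 84 genes with azoramide (0.561%) and 2 with DMSO (0.0134%), and 0 members in either. With azoramide the members' log2 fold changes, labelled knockout over control, ran from -0.15 (Copz2) to 0.11 (Sec24a), and with DMSO from -0.21 (Bet1) to 0.13 (Kdelr3), with standard errors up to 0.16. Groups did not overlap for 3 of 40 members with azoramide (Cope, Tmed9 and Lman1; 11.1% of all genes) and for 4 with DMSO (Sar1a, Sec13, Bet1 and Gbf1; 19.4% of all genes).

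The interaction, the azoramide effect in labelled knockout islets minus that in control islets, also gave 0 of 40 members and 0% of all genes. At an unadjusted p under 0.05 edgeR gave 0 members and 563 genes, and DESeq2 called 0 genes. Without both libraries that stood apart edgeR called 6 genes (0.0401%) and 0 members. Its values ran from -0.14 (Kdelr3) to 0.21 (Bet1). Bet1 had 48.2 ± 1.52 CPM with azoramide and 34.5 ± 0.541 with DMSO in labelled knockout islets (SD), and 48.2 ± 4.87 and 39.9 ± 4.38 in control islets; its interaction was 0.21 ± 0.13 (adjusted p = 0.999). The calls that Sec23a, Sec23b, Copa and Kdelr2 had in labelled knockout islets alone, and Sec24a, Preb, Copz2 and Arf5 in control islets alone, are therefore not shown to differ between genotypes.

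Other genes of the same route, 67 tethers, Rabs, SNAREs, coat partners and receptors, also moved in both directions. In labelled knockout islets 31 rose and 14 fell, against 20% and 19.8% of all genes. In control islets 29 rose and 13 fell, against 19.3% and 19.8%. Their medians were 0.17 and 0.15. A share of risers above that of all genes was thus not particular to the members, of which 22 and 20 of 40 rose, with medians of 0.26 and 0.20. Of the 67, those of smallest p that rose in labelled knockout islets were Bcap31 (1.02 ± 0.086), an ER membrane sorting factor, Ergic2 (0.58 ± 0.062), Scfd1 (0.77 ± 0.088), the partner of the Golgi SNARE syntaxin 5, and the TRAPP tether subunits Trappc3 (0.57 ± 0.068) and Trappc1 (0.72 ± 0.086). In control islets they were Bcap31 (0.90 ± 0.076), Trappc1 (0.82 ± 0.076), Use1 (0.74 ± 0.070), Trappc2l (0.86 ± 0.083) and Yif1a (0.74 ± 0.078). The fallers of smallest p in labelled knockout islets were Arfgef2 (-0.45 ± 0.073), an exchange factor of the late Golgi, the matrix protein Golga2 (-0.41 ± 0.069), the COG tether subunits Cog7 (-0.41 ± 0.071) and Cog1 (-0.37 ± 0.068) and Trappc10 (-0.32 ± 0.061). In control islets they were the golgin Golgb1 (-0.40 ± 0.054), Cog7 (-0.40 ± 0.064), Golga2 (-0.36 ± 0.062), Trappc10 (-0.30 ± 0.055) and Arfgef2 (-0.33 ± 0.066). With the offset from principal transcripts Bcap31 stood at 0.59 and 0.49, Golga2 at -0.059 and -0.063, and Arfgef2 at -0.080 and 0.031, labelled knockout before control islets.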

How the data were processed

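The table the authors deposited holds unnormalized read counts by gene, with a column for each of the 11 islet libraries. STAR 2.7.2a, mm10 and DESeq2, with no role given, are named in the submitters' processing notes, and DNBSEQ-T7 sequencing in the labels. How reads were counted, and whether by strand, is not given in the sources used here. Reads shared with overlapping genes of the other strand (for Copa with Ncstn, Copg2 with Mest, Arf4 with Pde12, Surf4 with Surf2, Preb with Abhd1 and Arf5 with Gcc1) cannot be told apart. Groups came from sample titles. Every pair of libraries in a group differed by more than sampling noise, and all 11 were kept.

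Counts were fitted in R 4.3.3 with edgeR 4.0.16 (quasi-likelihood test, robust, TMM scaling, its filter on low counts by group) in a single fit of 4 groups, with Benjamini-Hochberg adjustment over 15093 genes and a threshold of 0.05. Levels are CPM after TMM scaling, fold changes log2 values with their standard error (SE). Coordinates and transcript lengths came from GENCODE M21 (GRCm38, the assembly called mm10). The principal transcript was the one of best APPRIS rank, and the longest where several tied or none was tagged. Promoters came from RefSeq (GRCm38.p6).

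Alternatives were DESeq2 1.42.0, plain totals, no filter, only the groups compared, length and GC offsets by a spline with 5 degrees of freedom, acinar content as a covariate, a replicate block and leaving out libraries. The members and lists were chosen with earlier results of these data known. All 40 members are named, and from the 67 other transport genes the 5 risers and 5 fallers of smallest p in each genotype.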

Additional observations from a re-analysis of the deposited data

How the results depend on the processing

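Over 1866 values of single genes under an alternative, 1673 kept direction and call, 111 lost and 35 gained the call, and 47 changed sign. Of the 40 members, the offset for length and GC from all exons left 14 rising and 4 falling in labelled knockout islets, 18 in all, and 18 called with 3 falling in control islets. The offset from principal transcripts left 18 called and 3 falling in labelled knockout islets, and 16 called, 13 rising and 3 falling, in control islets. Plain library totals left 14 rising in labelled knockout and 11 in control islets. Leaving out single libraries gave 16 to 23 rising and 6 to 8 falling members in labelled knockout islets, and 15 to 24 and 9 to 10 in control islets; no member was called for genotype or interaction in these fits. Same-numbered libraries correlated at -0.133 to 0.096 between treatments, and differently numbered ones at -0.0964 to 0.133. These are deviations from means of groups of 2 or 3, so they cannot show whether the numbers pair the libraries. With the replicate number as a block 20 rose and 8 fell in labelled knockout islets, 28 in all, where Copa (0.17) and Kdelr2 (0.21) were not called, and 20 rose and 10 fell in control islets; the genotype and interaction counts were 0.

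With the all-exon offset the sign changed in labelled knockout islets for Sar1b (-0.0058), Preb (0.096) and Kdelr2 (-0.11), and in control islets for Sec23a (-0.032), Tfg (-0.049), Arf4 (-0.026), Kdelr1 (-0.18), Kdelr2 (-0.22), Kdelr3 (-0.28), Lman1 (0.042) and Bet1 (-0.12). With the principal transcript offset it changed in labelled knockout islets for Sec16a (0.025), Preb (0.18), Copz2 (-0.029), Arf4 (-0.062), Kdelr2 (-0.0038) and Bet1 (-0.19), and in control islets for Preb (0.075), Arf3 (0.033), Arf4 (-0.097), Kdelr1 (-0.14), Kdelr2 (-0.10), Kdelr3 (-0.20) and Bet1 (-0.33).

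With plain totals it changed in labelled knockout islets for Mia2 (-0.067), Copg1 (-0.093), Arf5 (-0.026), Lman1 (-0.092) and Surf4 (-0.12), and in control islets for Sec23a (-0.041), Mia2 (-0.041), Copa (-0.059), Copg1 (-0.078), Kdelr1 (-0.14), Kdelr2 (-0.046), Kdelr3 (-0.12) and Surf4 (-0.10); each such value moved with the median of all genes. With the acinar covariate Surf4 stood at -0.035 in labelled knockout islets. Single libraries changed the sign of values near 0: over the fits that each left out 1 library, Copg1 ran from -0.0085 to 0.11, Kdelr3 from -0.19 to 0.015 and Surf4 from -0.011 to 0.081 in labelled knockout islets, and Kdelr1 from -0.014 to 0.082, Kdelr3 from -0.047 to 0.15 and Lman1 from -0.086 to 0.048 in control islets. Without both libraries that stood apart Lman1 stood at 0.048 in control islets. The causes were not tested. All exons of a gene include retained introns, so both offsets are approximate. With groups of 2 and 3 pooled samples, genotype differences above their standard error also went uncalled: with DMSO, labelled knockout over control, Bet1 stood at -0.21 ± 0.099 (SE).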
